A study of Homo sapiens with 6 samples.

Results

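Panc-1, an established human pancreatic cancer line, was examined for 42 genes that build or specify an epithelium, out of 58735 genes in the deposited count table. The members were taken by gene symbol. They comprised 13 tight junction genes, 4 adherens junction genes, 8 desmosome genes, 4 genes of the epithelial surface and of membrane traffic, 8 regulators of epithelial identity and 5 polarity genes. Wild-type Panc-1 cells were co-cultured for 72 h with fibroblasts of the cancer-associated kind (CAF) that overexpressed PAI-1, a serpin that inhibits plasminogen activators, or with CAF that did not. Each group had 3 libraries of oligo-dT selected RNA, called PAI-1 libraries and CAF libraries below, and ± gives the SD over the 3. The column headings call the second group "NC", whose meaning is not given. All cells were of a single line, and the labels give neither the origin of the fibroblasts, nor the means of overexpression, nor how the cultures were kept apart or separated. They call the replicates biological without naming separate cultures, so that a p-value here rests on library-to-library spread, which may be technical. The extraction text speaks of Cal27 cells, a squamous line, with Stattic or DMSO as agents.

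Epithelial cells are held together by 3 kinds of junction. Tight junctions seal the space between cells through claudins and occludin, which the ZO proteins tie to actin. Adherens junctions join the cells' actin through cadherins and catenins, and desmosomes join their keratin filaments through desmogleins, desmocollins, plakoglobin, plakophilins and desmoplakin. The Crumbs, PAR and Scribble groups of proteins set up the apical and basal sides of the cell. Transcription factors such as GRHL2, ELF3, EHF and OVOL1 and OVOL2, with the splicing regulators ESRP1 and ESRP2, uphold the epithelial programme, and the repressors ZEB1 and SNAI1 bind E-boxes in many of its genes.

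The libraries held 13628508 to 16006880 counts, and 3 counts, the most that a count of 0 allows, correspond to 0.187 to 0.22 CPM, the counts of a gene scaled to library size, for counting error alone. PAI-1 replicate 2 stood apart. It had 3.78% of its counts from mitochondrial genes, against 4.76% and 5.12% in the other PAI-1 libraries and 5.53% to 5.92% in the CAF libraries, and results that it decides are given without it. The 4 keratin markers KRT7, KRT8, KRT18 and KRT19 summed to 2037 to 2297 CPM in PAI-1 libraries and 1772 to 1883 CPM in CAF libraries, and all 4 rose. KRT8 averaged 1139.8 ± 75.3 CPM in PAI-1 libraries and 1015 ± 31.6 CPM in CAF libraries. KRT18 averaged 751 ± 33.4 CPM in PAI-1 libraries and 581 ± 22.8 CPM in CAF libraries. KRT8 did not pass without PAI-1 replicate 3, CAF replicate 1 or CAF replicate 3 (edgeR adjusted p 0.0729 to 0.0892). Of 16 fibroblast markers, 8 had at most 3 counts in every library. DCN, LUM, COL1A2, PDGFRA, PDGFRB, FAP, POSTN and MFAP5 together had 9 counts in the PAI-1 libraries and 13 in the CAF libraries. The whole fibroblast list summed to 642 to 738 CPM in PAI-1 libraries and 499 to 517 CPM in CAF libraries, mostly from S100A4 and COL1A1, which both rose, and from FBLN1. S100A4 averaged 310.1 ± 35.8 CPM in PAI-1 libraries and 192 ± 11.7 CPM in CAF libraries, and COL1A1 averaged 257 ± 16.5 CPM in PAI-1 libraries and 186 ± 19.9 CPM in CAF libraries. Markers of squamous epithelium were all under 1 CPM in every library, with 26 counts in PAI-1 libraries and 46 in CAF libraries for the 10 genes, TP63 and KRT13 included. The part of other cells' RNA in the results below was not tested, and in bulk RNA fewer cells of a type cannot be told apart from less RNA per cell. Of 5 leukocyte markers, 4 were under 1 CPM in every library, PTPRC included. CD14, the remaining leukocyte marker, averaged 6.02 ± 0.74 CPM in PAI-1 libraries and 5.52 ± 0.55 CPM in CAF libraries and did not pass. Of 5 endothelial markers, 4 were under 1 CPM in every library, VWF included. KDR, the other one, rose and averaged 1.85 ± 0.61 CPM in PAI-1 libraries and 0.83 ± 0.22 CPM in CAF libraries, but did not pass without PAI-1 replicate 1 (edgeR adjusted p = 0.136) or CAF replicate 3 (0.0855).

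Some catenins, claudins and desmosomal genes had the highest RNA levels among the members, while others of these families, such as CLDN6 and DSC3, were low. The member cadherin of adherens junctions, CDH3, was low, and 5 of 8 identity regulators did not reach the filter on low counts. Levels per transcript length are given as TPM, counts divided by length and scaled to a fixed sum, over the summed exon length of each gene. Of the 42 members, 25 averaged at least 10 TPM and 32 at least 1 TPM. CTNNA1, which encodes the alpha-catenin that ties cadherins to actin, stood first with 221 ± 2.68 TPM in PAI-1 libraries and 195 ± 3.73 TPM in CAF libraries (SD, n = 3 each). Its order with the next gene, JUP, differed by group. CTNNA1 was above JUP in every PAI-1 library and below it in every CAF library, though barely in CAF replicate 3 (198.9 against 199.0 TPM). JUP encodes plakoglobin, a catenin of both desmosomes and adherens junctions, and had 162 ± 4.73 TPM in PAI-1 libraries and 199 ± 3.49 TPM in CAF libraries. CLDN4, CTNND1, CLDN1, PKP3, DSG2, CLDN7 and CTNNB1 followed. Among these, CLDN1 was above CTNND1 and PKP3 in every PAI-1 library and below both in every CAF library. DSG2 was below CLDN7 in every PAI-1 library and above it in every CAF library. SCRIB led the polarity genes with 72.3 ± 4.72 TPM in PAI-1 libraries and 70.7 ± 5.74 TPM in CAF libraries. MUC1, a transmembrane mucin, led the surface genes with 39.2 ± 2.09 TPM in PAI-1 libraries and 39.8 ± 5.79 TPM in CAF libraries. EPCAM, the adhesion molecule by which many carcinomas are recognised, had 11.6 ± 2.09 TPM in PAI-1 libraries and 10.4 ± 0.84 TPM in CAF libraries. Over all 6 libraries ESRP2 led the identity regulators, with 11.8 ± 2.75 TPM in PAI-1 libraries and 13.1 ± 1.08 TPM in CAF libraries, while in each CAF library ELF3 was above it, at 15.9 ± 0.72 TPM on average.

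**Figure D1:**
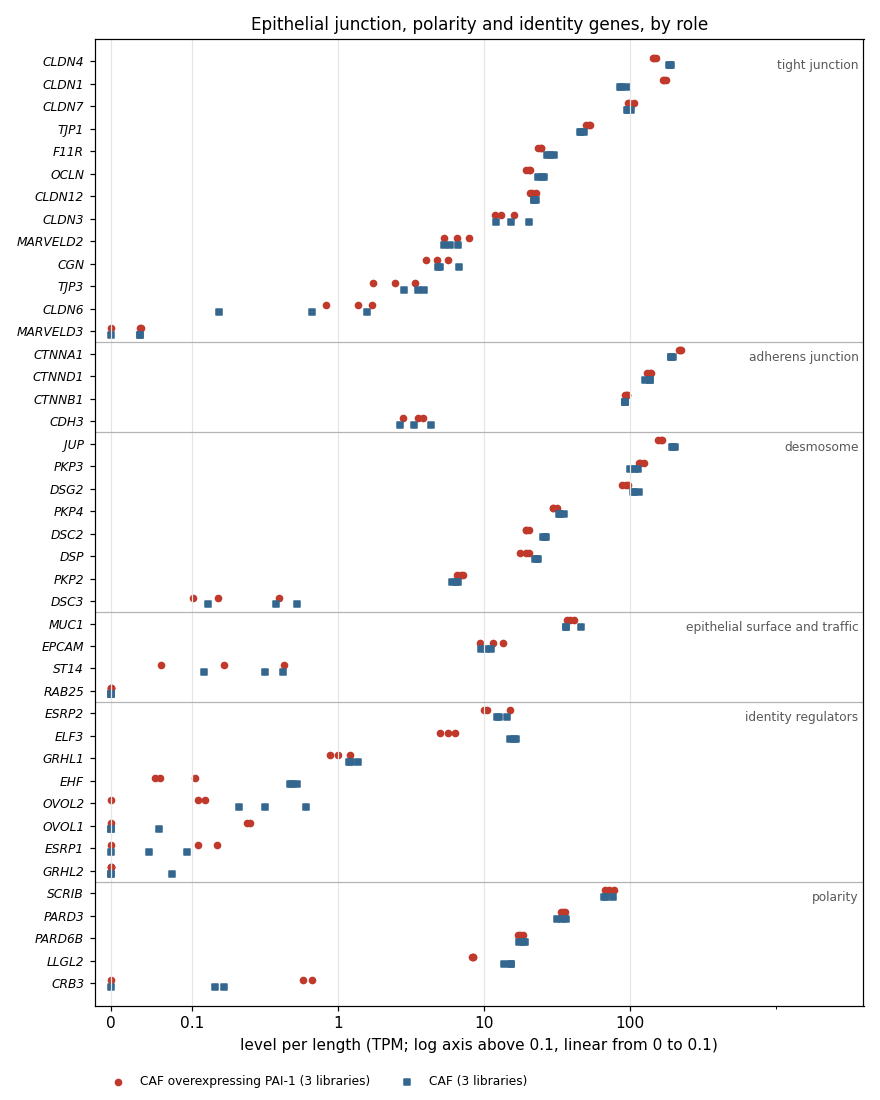
Level of each of the 42 members in TPM, on an axis that is logarithmic above 0.1 and linear below it, with 1 point per library, circles for CAF overexpressing PAI-1 and squares for CAF. Within each role the members run from high to low, and the identity regulators other than ESRP2, ELF3 and GRHL1 lie below 1 TPM.

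A group of 10 members did not pass the filter on low counts and were not tested. RAB25, a small GTPase of apical recycling in epithelia, had 0 counts in all 6 libraries. GRHL2 had 0, 0 and 0 counts in PAI-1 libraries and 0, 2 and 0 in CAF libraries, ESRP1 had 3, 2 and 0 in PAI-1 libraries and 1, 2 and 0 in CAF libraries, and MARVELD3, a tight junction protein, had at most 1 in any library. ST14, the membrane protease matriptase, had 3, 1 and 8 counts in PAI-1 libraries and 6, 8 and 2 in CAF libraries. CRB3, the epithelial Crumbs protein, had 0, 4 and 4 in PAI-1 libraries and 0, 1 and 1 in CAF libraries. CLDN6, a claudin of embryonic epithelia, had 6, 9 and 13 in PAI-1 libraries and 12, 5 and 1 in CAF libraries. The groups of these 7 genes overlapped. OVOL1 had 4, 0 and 4 counts in PAI-1 libraries and 1, 0 and 0 in CAF libraries, and OVOL2 had 1, 1 and 0 in PAI-1 libraries and 2, 3 and 5 in CAF libraries. EHF, an ETS factor of epithelia, had 1, 1 and 2 counts in PAI-1 libraries and 10, 9 and 8 in CAF libraries. The groups of OVOL2 and EHF did not overlap, but both lay below the filter of the main test. With no filter EHF passed as lower.

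Of the 32 members that were tested, 4 rose and 8 fell with CAF overexpressing PAI-1. These 12 are 37.5% of the members tested, while 32.2% of all 14960 genes tested were called by the same edgeR quasi-likelihood test (Benjamini-Hochberg adjusted p under 0.05). Rises made up 12.5% of the members tested against 17.2% of all genes, and falls 25% against 15%. The balance moved with the scaling. When libraries were scaled by their size alone, 2 members rose and 10 fell, and 1839 genes rose and 3182 fell, where the main scaling gave 2571 and 2239. The groups did not overlap for 15 of the members tested (46.9%) and for 43.4% of all genes. The median log2 fold change was -0.05 over the members tested and -0.0014 over all genes, and the members' median was 0.012 without PAI-1 replicate 2. CLDN1, ELF3 and LLGL2, 3 of the 32 members tested, were called with a change of at least 1.5-fold. Such a size was reached with a call by 8.42% of all genes. Of the 20 members that did not pass, 17 had a 95% interval within 1.5-fold in both directions, and TJP3, DSC3 and GRHL1, all low, had wider ones.

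**Figure D2:**
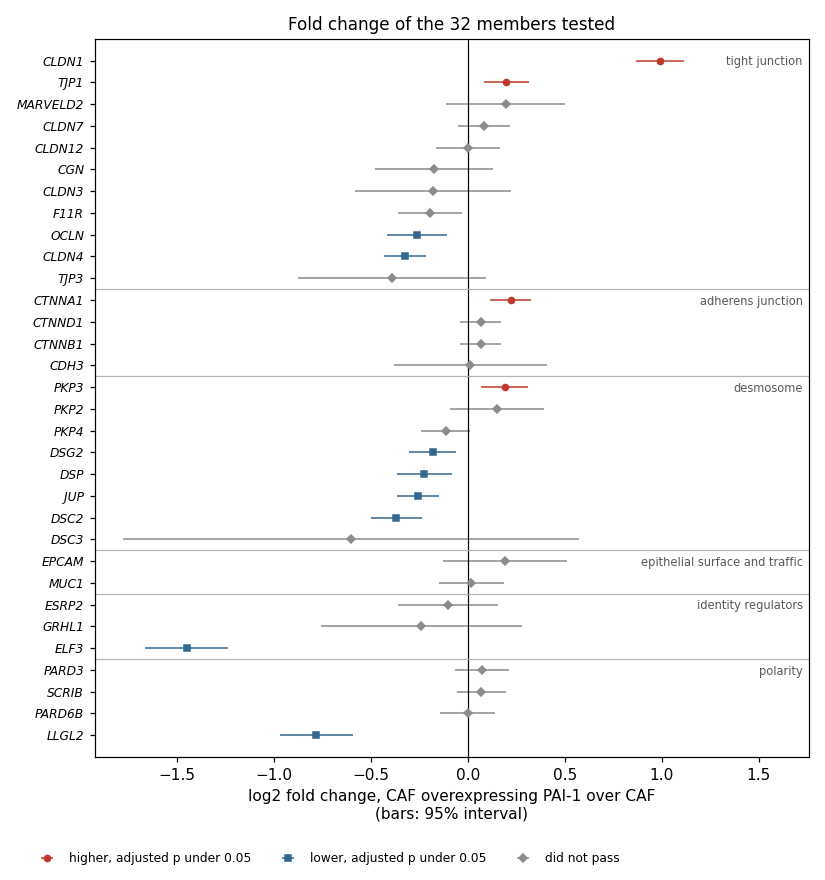
Log2 fold change of the 32 members tested, CAF overexpressing PAI-1 over CAF, with 95% intervals, grouped by role. CLDN1 stands alone on the right near 1, ELF3 and LLGL2 lie farthest left among members called, and most other intervals stay between -0.5 and 0.5.

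In the tight junction, CLDN1 rose while CLDN4 and occludin fell. CLDN1 encodes a claudin that tightens the barrier of skin and other epithelia. Its TMM-scaled level was 183, 171 and 174 CPM in PAI-1 libraries, against 84.3, 85.7 and 95.9 CPM in CAF libraries. The lowest PAI-1 library lay far above the highest CAF library, with a 1.99-fold rise (log2 fold change 0.99, SE 0.061, edgeR adjusted p = 7.42e-15). CLDN4, a claudin of simple epithelia that is abundant in pancreatic cancers, had 191, 188 and 198 CPM in PAI-1 libraries, against 240.4, 243 and 239 CPM in CAF libraries. The groups did not overlap, and CLDN4 fell to 0.799 of its CAF level (log2 fold change -0.32, SE 0.053, adjusted p = 1.09e-05). OCLN, which encodes occludin, had 39.5, 35.7 and 38.6 CPM in PAI-1 libraries, against 46.5, 46.8 and 43.2 CPM in CAF libraries. All 3 PAI-1 libraries were lower (log2 fold change -0.26, SE 0.076, adjusted p = 0.00726). TJP1, which encodes the scaffold ZO-1, had 167, 155 and 169 CPM in PAI-1 libraries, against 136, 143 and 149 CPM in CAF libraries. The gap between the groups was narrower than for CLDN1 (log2 fold change 0.20, SE 0.058, adjusted p = 0.00758), and TJP1 did not pass without PAI-1 replicate 3 (adjusted p = 0.0524), without CAF replicate 1 (0.0594) or with library size alone (0.0736).

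Other tight junction members did not pass. CLDN7, at 101 ± 4.86 TPM in PAI-1 libraries and 98.2 ± 2.75 TPM in CAF libraries, had a log2 fold change of 0.08 with a 95% interval of -0.05 to 0.22. CLDN12, a claudin that lacks the usual PDZ-binding end, had 0.0015 (-0.16 to 0.17). F11R, which encodes the adhesion molecule JAM-A, had -0.20 (-0.36 to -0.03, adjusted p = 0.0608), with all PAI-1 libraries below all CAF libraries. It passed without CAF replicate 1, with library size alone and among genes of at least 10 CPM. F11R shares 36.6% of its exon bases with an overlapping gene on the same strand, so its counts are less certain. CLDN3 had -0.18, CGN, encoding cingulin, -0.17, MARVELD2, encoding tricellulin, 0.19 and TJP3, encoding ZO-3, -0.39. CLDN3 and CLDN4 are neighbours on chromosome 7, at 73768997 to 73770270 on the minus strand and 73799542 to 73832693 on the plus strand of GRCh38. Of the neighbours CLDN4 passed the test, and whether their changes differ was not tested.

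The make-up of the claudins differed between the groups. CLDN1 made up 38.9%, 37.1% and 37.1% of the summed TPM of the 6 member claudins in PAI-1 libraries, against 21.1%, 20.6% and 22.8% in CAF libraries. CLDN4 made up 31.6%, 31.8% and 32.9% in PAI-1 libraries, against 46.9%, 45.5% and 44.1% in CAF libraries. Per length, the first place belonged to CLDN1 in every PAI-1 library and to CLDN4 in every CAF library. The differences were 16.2 and -13.4 percentage points. By counts not divided by length CLDN4 kept the first place in PAI-1 libraries, at 39.7% against 36.3% for CLDN1. CLDN7 held 22.2% ± 0.97 of summed TPM in PAI-1 libraries and 23.6% ± 0.32 in CAF libraries, and CLDN12, CLDN3 and CLDN6 made up the rest. The 6 genes together summed to 457 ± 2.00 TPM in PAI-1 libraries and 416 ± 5.97 TPM in CAF libraries. An exact two-sided permutation test of 3 against 3 libraries cannot go below p = 0.10, the value for CLDN1, CLDN4, CLDN7 and CLDN12 (0.175 after Benjamini-Hochberg adjustment over 14 shares in 4 families). By counts not divided by length the CLDN7 groups overlapped, with a difference of -0.48 points (exact permutation p = 0.40), against -1.48 points by TPM. The shares of 1 family are not independent of each other.

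**Figure D3:**
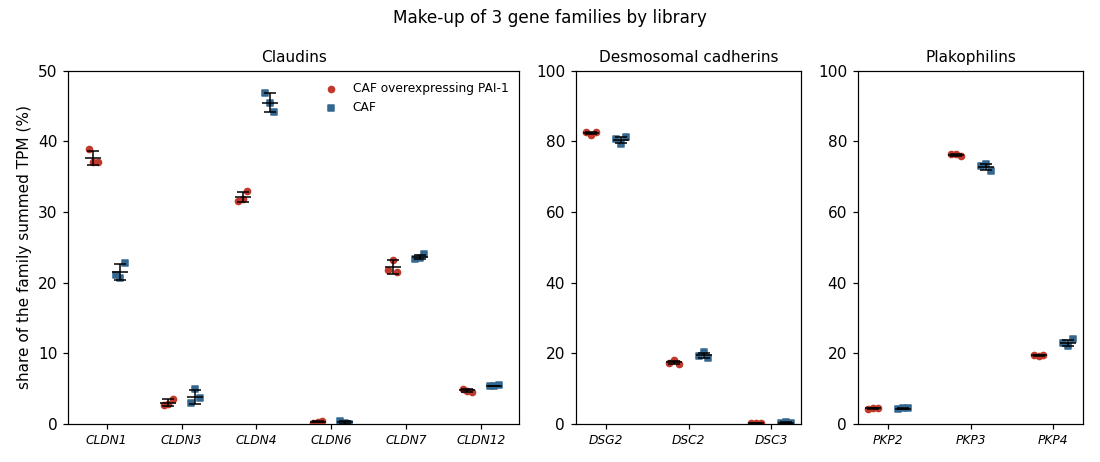
Share of each gene in the summed TPM of its family, in percent, for claudins, desmosomal cadherins and plakophilins, with 1 point per library and bars for mean and SD of 3 libraries. CLDN1 and CLDN4 exchange first place between the groups, while DSG2 and PKP3 lead their families in both.

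JUP, a catenin of both junctions, is counted with the desmosome and fell. Of the 4 members listed under the adherens junction, CTNNA1 was the one that passed. It had 542, 538 and 549 CPM in PAI-1 libraries, against 453, 466 and 478 CPM in CAF libraries. The groups did not overlap, and the rise was 1.17-fold (log2 fold change 0.22, SE 0.052, adjusted p = 0.00101). CTNNB1 and CTNND1 encode beta-catenin and p120-catenin, which bind the tail of classical cadherins. CTNNB1 averaged 314 ± 11.2 CPM in PAI-1 libraries and 300.1 ± 5.58 CPM in CAF libraries, with a log2 fold change of 0.07 (95% interval -0.04 to 0.17). CTNND1 had the same 0.07 (-0.04 to 0.17) on means of 335 ± 9.51 CPM in PAI-1 libraries and 319.9 ± 10.4 CPM in CAF libraries. CDH3, which encodes P-cadherin, had 3.37 ± 0.54 TPM in PAI-1 libraries and 3.44 ± 0.86 TPM in CAF libraries and did not pass (adjusted p = 0.971).

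Of 8 desmosome genes, all tested, 4 fell and 1 rose. The called genes are 62.5% of the 8, against 32.2% of all genes tested. Falls made up 50% against 15% of all genes, and rises 12.5% against 17.2%. The desmosomal cadherins DSC2 and DSG2, a desmocollin and a desmoglein that bridge neighbouring cells, both fell. DSC2 had 71.7, 65.9 and 68.0 CPM in PAI-1 libraries, against 84.4, 91.4 and 89.6 CPM in CAF libraries. It fell to 0.775 of its CAF level, with no overlap (log2 fold change -0.37, SE 0.064, adjusted p = 2.94e-05). DSG2 had 170.0, 149 and 163 CPM in PAI-1 libraries, against 176, 178 and 194 CPM in CAF libraries. The lowest CAF library was close to the highest PAI-1 library (log2 fold change -0.18, SE 0.059, adjusted p = 0.0177), and DSG2 did not pass without PAI-1 replicate 2 (adjusted p = 0.054) or without CAF replicate 3 (0.155).

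Inside the desmosome, JUP had 219, 219.9 and 231 CPM in PAI-1 libraries, against 267, 266 and 268 CPM in CAF libraries. Plakoglobin RNA was therefore lower in every PAI-1 library (log2 fold change -0.26, SE 0.053, adjusted p = 0.000235). DSP encodes desmoplakin, which anchors keratin filaments, and had 50.2, 56.1 and 54.8 CPM in PAI-1 libraries, against 62.2, 61.7 and 64.3 CPM in CAF libraries. DSP was lower in all PAI-1 libraries (log2 fold change -0.22, SE 0.069, adjusted p = 0.012), but did not pass without PAI-1 replicate 1 (0.0655) or without CAF replicate 3 (0.0582). PKP3, a plakophilin, had 126, 130.02 and 122 CPM in PAI-1 libraries, against 114, 114 and 103 CPM in CAF libraries and went the other way. It rose (log2 fold change 0.19, SE 0.060, adjusted p = 0.0131), but did not pass without CAF replicate 3 (0.124) or with library size alone (0.113). PKP2 had a log2 fold change of 0.15 and PKP4 of -0.11, without passing, and DSC3, with 3 to 16 counts per library, had -0.60 with an interval of -1.78 to 0.58.

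DSG2 held 82.4% ± 0.41 of the summed TPM of the 3 desmosomal cadherins in PAI-1 libraries and 80.4% ± 0.92 in CAF libraries. PKP3 held 76.2% ± 0.33 of the plakophilins in PAI-1 libraries and 72.8% ± 0.92 in CAF libraries. The groups of both shares did not overlap (exact permutation p = 0.10, the smallest possible). The cadherins summed to 113 ± 5.22 TPM in PAI-1 libraries and 135 ± 5.55 TPM in CAF libraries. DSC3, DSC2 and DSG2 lie in 1 gene cluster on chromosome 18, from 30990008 to 31549008 on GRCh38. Within that cluster DSC2 and DSG2 were expressed, and DSG1, DSG3 and DSC1, the family members of stratified epithelia, had at most 6 counts in any library.

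ELF3 showed the largest change of the members tested. This ETS factor acts in simple epithelia, the pancreatic ducts included. It had 11.6, 12.5 and 10.0 CPM in PAI-1 libraries, against 28.9, 32.6 and 31.4 CPM in CAF libraries. The highest PAI-1 library held less than the lowest CAF library by a wide margin, and the fall was to 0.366 of the CAF level (log2 fold change -1.45, SE 0.11, adjusted p = 5.74e-13). ELF3-AS1, an antisense gene, lies over part of ELF3, and ELF3 shares 18.5% of its exon bases with overlapping genes on either strand. ELF3-AS1 had 32, 46 and 43 counts in PAI-1 libraries and 82, 89 and 78 in CAF libraries and fell too (log2 fold change -0.97, SE 0.21, adjusted p = 0.000453). Whether strand was used in counting is not given, so the reads of the pair cannot be told apart where they overlap. ESRP2 had a log2 fold change of -0.10 (95% interval -0.36 to 0.16) and GRHL1 had -0.24 (-0.76 to 0.28), and neither passed. ESRP2 had 16.5, 15.2 and 23.4 CPM in PAI-1 libraries, against 21.2, 18.7 and 19.3 CPM in CAF libraries, so that 1 PAI-1 library was the highest and the others the lowest. Without that library, PAI-1 replicate 3, the log2 fold change was -0.32 (adjusted p = 0.0532), and without PAI-1 replicate 2 it was 0.01.

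Among polarity genes LLGL2 fell. LLGL2 encodes a Lgl protein of the basolateral Scribble group. It had 18.5, 18.1 and 18.6 CPM in PAI-1 libraries, against 32.1, 29.9 and 32.9 CPM in CAF libraries. The groups lay well apart, and the fall was to 0.582 of the CAF level (log2 fold change -0.78, SE 0.092, adjusted p = 2.81e-08). Its partner SCRIB had 125, 131 and 118 CPM in PAI-1 libraries, against 127, 117 and 112 CPM in CAF libraries, with overlapping groups (log2 fold change 0.07, 95% interval -0.05 to 0.20). PARD3 and PARD6B, the PAR proteins that hold the atypical protein kinase C at the apical side, had 0.07 (-0.07 to 0.21) and -0.0006 (-0.14 to 0.14) and did not pass.

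Neither tested gene of the surface group passed. MUC1 had 55.2, 49.97 and 49.5 CPM in PAI-1 libraries, against 58.3, 47.2 and 46.96 CPM in CAF libraries, and the groups overlapped (log2 fold change 0.02, 95% interval -0.15 to 0.18). EPCAM had 8.26, 9.37 and 6.66 CPM in PAI-1 libraries, against 7.53, 6.61 and 7.05 CPM in CAF libraries, also with overlap (log2 fold change 0.19, -0.13 to 0.51).

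**Figure D4:**
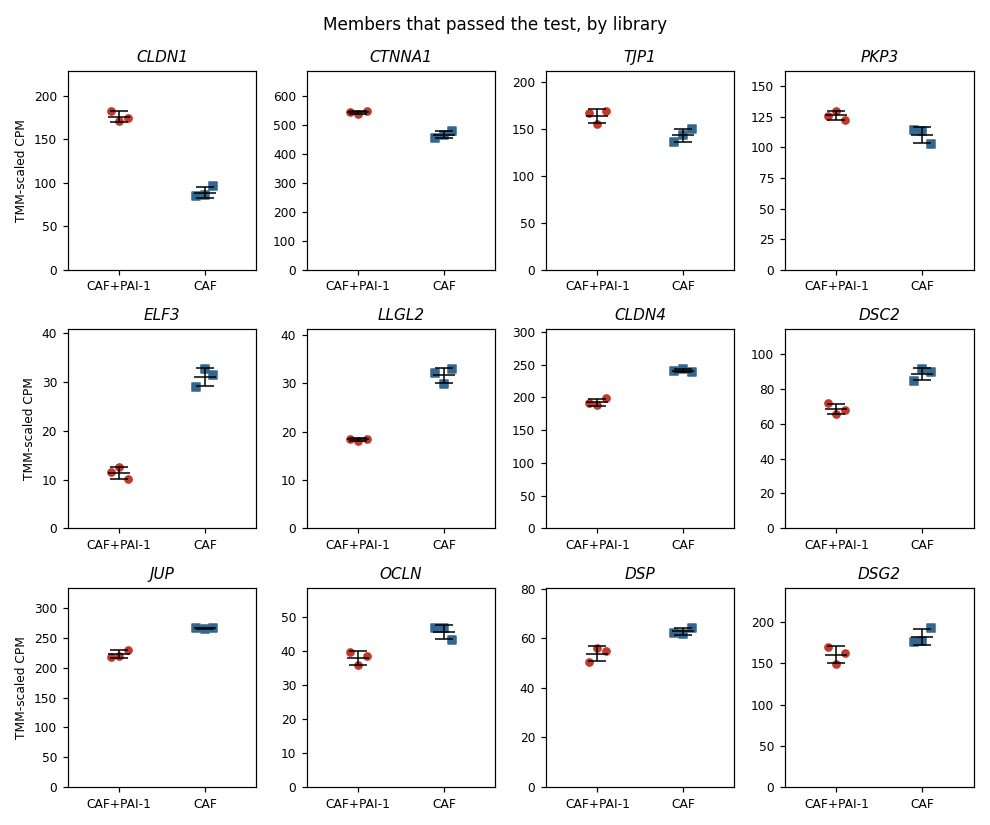
TMM-scaled CPM of the 12 members that passed the test, with 1 point per library and bars for mean and SD of 3 libraries, and axes that start at 0. The 4 members that rose come first, and the groups do not overlap in any panel.

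The promoters of the members were read from RefSeq (GRCh38.p14), as 250 bases before and 50 after each start, for 25 of the 42 members with 39 promoters. They were searched on both strands for the E-box CAGGTG that SNAI and ZEB factors bind, the AP-1 motif TGANTCA, the EGR motif GCGNGGGCG and the Grainyhead motif AACCNGNTT, none of which contains another. The E-box stood in 16 of 39 member promoters (41%), in 14 of 25 genes, and in 20.6% of the 35116 promoters of all genes. Promoters of the same gene can overlap, and those of MUC1 hold the same E-boxes. AP-1 stood in 1 of 39 (2.56%, against 7.71% of all), EGR in 3 (7.69%, against 9.43%) and Grainyhead in 2 (5.13%, against 2.11%). These matches are descriptions of letters and show no binding. The promoters of the called members ELF3, CLDN1 and CLDN4 are shown for the largest fall, the largest rise and the claudin with the highest CAF level, and that of CRB3 for its 5 E-boxes. They are ELF3 at chr1:202010337-202010636 on the plus strand, CLDN1 at chr3:190322397-190322696 on the minus strand, CLDN4 at chr7:73830746-73831045 on the plus strand and CRB3 at chr19:6464021-6464320 on the plus strand. Capitals mark the matches, which are an E-box in ELF3, 2 AP-1 motifs in CLDN4 and the E-boxes in CRB3, and CLDN1 holds none of the 4 motifs in this window. A promoter of CLDN7, not shown, also holds 5 E-boxes. Over all 6 libraries CLDN7 averaged 99.8 TPM and did not pass, while CRB3 averaged 0.26 TPM and was not tested.
ELF3: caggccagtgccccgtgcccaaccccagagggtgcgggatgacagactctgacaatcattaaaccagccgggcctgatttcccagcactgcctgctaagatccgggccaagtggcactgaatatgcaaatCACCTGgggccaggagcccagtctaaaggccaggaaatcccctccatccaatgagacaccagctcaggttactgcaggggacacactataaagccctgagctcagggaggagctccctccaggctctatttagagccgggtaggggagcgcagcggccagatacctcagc
CLDN1: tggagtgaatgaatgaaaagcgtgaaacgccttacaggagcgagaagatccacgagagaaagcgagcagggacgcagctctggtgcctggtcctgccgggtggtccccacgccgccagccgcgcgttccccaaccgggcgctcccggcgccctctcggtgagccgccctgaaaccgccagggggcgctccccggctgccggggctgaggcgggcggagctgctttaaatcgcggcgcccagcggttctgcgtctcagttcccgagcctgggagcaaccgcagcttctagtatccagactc
CLDN4: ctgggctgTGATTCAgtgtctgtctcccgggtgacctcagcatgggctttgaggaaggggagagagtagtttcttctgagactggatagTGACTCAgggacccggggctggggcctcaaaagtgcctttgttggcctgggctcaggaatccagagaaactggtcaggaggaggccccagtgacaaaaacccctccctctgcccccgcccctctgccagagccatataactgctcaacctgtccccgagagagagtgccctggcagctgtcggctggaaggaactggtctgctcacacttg
CRB3: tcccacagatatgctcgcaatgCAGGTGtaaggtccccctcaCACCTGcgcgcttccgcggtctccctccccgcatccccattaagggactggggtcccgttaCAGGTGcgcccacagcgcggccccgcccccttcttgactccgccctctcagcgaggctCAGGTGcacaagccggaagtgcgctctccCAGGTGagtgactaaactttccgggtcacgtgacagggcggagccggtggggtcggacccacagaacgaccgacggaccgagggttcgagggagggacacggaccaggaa

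The E-box of ELF3 begins 120 bases before the start, and those of CRB3 begin 228, 208, 147, 89 and 60 bases before it. Of the repressors that bind such boxes, ZEB1 had 48.7 ± 2.31 CPM in PAI-1 libraries and 36.4 ± 2.35 CPM in CAF libraries, and SNAI1 had 9.86 ± 1.5 CPM in PAI-1 libraries and 5.36 ± 0.73 CPM in CAF libraries. Both rose (log2 fold changes 0.42 and 0.87, edgeR adjusted p = 4.74e-05 and 6.04e-05). SNAI2 had 36, 28 and 34 counts in PAI-1 libraries and 14, 6 and 1 in CAF libraries and rose as well (log2 fold change 2.31, adjusted p = 8.37e-05), while ZEB2 and TWIST2 did not pass and TWIST1 had 0 counts in every library. The part of these repressors in the changes of the members was not tested.

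Of 72 other genes of the same structures and of gap junctions, 51 were tested, 7 rose and 16 fell. The called genes are 45.1% of those tested, against 32.2% of all genes. Rises made up 13.7% against 17.2% of all genes, and falls 31.4% against 15%. With glmTreat, which tests for changes beyond 1.2-fold, 5 rose and 4 fell. VCL, which encodes vinculin, the actin linker recruited by alpha-catenin, had 923, 784 and 905 CPM in PAI-1 libraries, against 506, 502 and 503 CPM in CAF libraries (log2 fold change 0.79, SE 0.057, adjusted p = 5.3e-13). PAI-1 replicate 2 was the lowest of the high group, and the groups lay far apart. GJB2, which encodes connexin 26, averaged 111 ± 3.72 CPM in PAI-1 libraries and 69.4 ± 5.77 CPM in CAF libraries (0.68, SE 0.066, adjusted p = 4.26e-10). GJA1, which encodes connexin 43, rose by 0.35 on the log2 scale. AMOTL2, an angiomotin family scaffold at tight junctions, averaged 101 ± 5.16 CPM in PAI-1 libraries and 66.5 ± 1.31 CPM in CAF libraries (0.60, SE 0.063, adjusted p = 2.78e-09). LSR, encoding a protein of tricellular junctions, and LIMA1, encoding an actin linker of adherens junctions, rose by 0.48 and 0.24.

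Falls among these other genes included parts of the same junctions and the same regulator families. PERP, a desmosomal membrane protein, averaged 629 ± 10.9 CPM in PAI-1 libraries and 797 ± 35.01 CPM in CAF libraries (log2 fold change -0.34, SE 0.053, adjusted p = 4.33e-06). PLEKHA7, an adherens junction protein that binds p120-catenin, averaged 19.0 ± 2.17 CPM in PAI-1 libraries and 28.4 ± 1.13 CPM in CAF libraries (-0.58, SE 0.098, adjusted p = 1.8e-05). GRHL3, a Grainyhead factor, averaged 12.6 ± 2.78 CPM in PAI-1 libraries and 21.2 ± 0.83 CPM in CAF libraries (-0.75, SE 0.12, adjusted p = 1.19e-05). EVPL, encoding envoplakin, had -0.31, and SPINT1, an inhibitor of matriptase, had -0.41. Of 15 other polarity genes tested, 5 were called, all as lower, and 10 did not pass. The called genes are 33.3% of the 15, against 32.2% of all genes, and falls 33.3% against 15%. Over the 15 the log2 fold change had a median of -0.04 and a maximum of 0.69. PARD6G, DLG3, LLGL1 and STK11 fell, with log2 fold changes from -0.72 to -0.17. PARD3B passed too, at -0.89, but had 21, 17 and 28 counts in PAI-1 libraries and 28, 73 and 28 in CAF libraries, so that the groups overlapped, and without CAF replicate 2 it had -0.31 (adjusted p = 0.578). PARD3B also did not pass without PAI-1 replicate 1 or 2. LLGL1, the other Lgl gene, did not pass without PAI-1 replicate 2 (-0.13, adjusted p = 0.125) or without CAF replicate 3 (0.0621), and STK11 did not without PAI-1 replicate 1, CAF replicate 1 or CAF replicate 2 (0.0789 to 0.148). Among tight junction genes CLDN15, AMOT, MAGI3, MAGI1 and PATJ fell, from -0.53 to -0.22, and AP1M2, an adaptor of basolateral sorting, had -0.77. CLDN15 did not pass without PAI-1 replicate 1, CAF replicate 1 or CAF replicate 3 (adjusted p 0.0944 to 0.131), and PATJ did not without PAI-1 replicate 1 or 3 or CAF replicate 2 or 3 (0.115 to 0.23). MAGI1 did not pass without PAI-1 replicate 2 (0.108) or CAF replicate 1 (0.174), nor MAGI3 without CAF replicate 3 (0.0867). CDC42, a small GTPase of the PAR complex, shares 59.4% of its exon bases with overlapping genes and had 13 to 24 counts per library, so that its level here is uncertain.

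**Figure D5:**
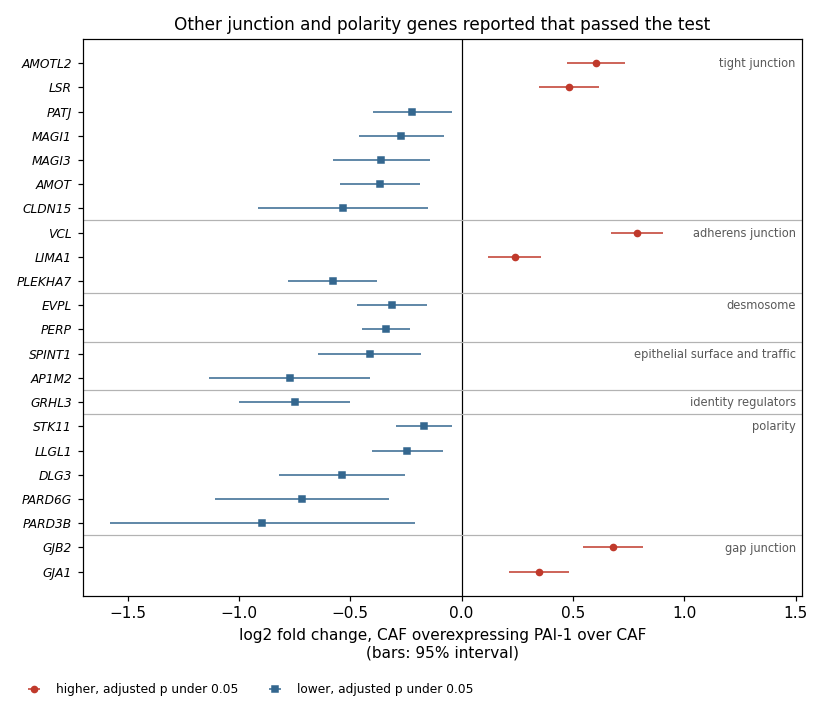
Log2 fold change, CAF overexpressing PAI-1 over CAF, with 95% intervals, of other junction and polarity genes that passed the test and are reported here, grouped by role. VCL, GJB2 and AMOTL2 lie farthest to the right of 0, and the 5 polarity genes that passed, of 15 tested, lie to the left.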

How the data were processed

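The authors deposited whole-number counts per gene for 6 libraries. Per the submitters' processing notes, BWA, Bowtie2, RSEM and hg19 were used, with no roles or versions. The counting step and use of strand are not given in the sources used here. All 58735 gene identifiers match GENCODE release 29 (GRCh38), which gave coordinates and exon lengths for TPM. The test was that of edgeR 4.0.16 (R 4.3.3) (filterByExpr, minimum count 10 and minimum total 15, TMM scaling, robust quasi-likelihood F test, adjusted p under 0.05), with no covariate. "Rose", "fell" and "called" are used of genes that passed. SE is the size of the unshrunken log2 change over the square root of F. The members, lists and tests were chosen with earlier results of these data known. Values per library are given for members called and for the most abundant tested member of each role, with the 3 smallest p in each direction among other junction genes of at least 5 CPM and the 2 most abundant markers of each list. Libraries of a group differed by 2.58 to 9.51 in chi-square per degree of freedom, above sampling noise, so none is a copy. The script was first tested on simulated data. Some genes of the lists are not reported here by name.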

Additional observations from a re-analysis of the deposited data

How the results depend on the processing

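The calls were repeated with DESeq2 1.42.0 and limma-voom 3.58.1, with RLE or unadjusted library sizes, with no filter or a mean CPM of at least 1 or 10, without the robust step, with glmTreat for changes beyond 1.2-fold, with a replicate block, and without each library in turn. CLDN1, ELF3 and LLGL2 passed in all 16 alternatives in 1 direction, with log2 fold changes of 0.92 to 1.05, -1.53 to -1.36 and -0.85 to -0.75. CLDN4, OCLN, CTNNA1, DSC2 and JUP passed in all but glmTreat. With glmTreat 1 member rose and 2 fell, 828 genes rose and 783 fell, and 5 other junction genes rose and 4 fell. Library size alone left 2 members higher, with F11R and PKP4 passing as lower, F11R also passed with a mean CPM of at least 10 and without CAF replicate 1, and EHF passed as lower with no filter. The median of the members moved to -0.12 with library size alone, 0.0086 with no filter, -0.0065 when genes averaging under 1 CPM were dropped and -0.022 when those under 10 CPM were. Leaving out 1 library gave medians of -0.0704 to 0.012, 3 to 4 members higher and 6 to 9 lower. The replicate numbers did not pair the libraries (r = 0.0023 to 0.012 between deviations of same-numbered libraries), and with the replicate block 4 members rose and 8 fell as without it, and 2708 and 2361 genes did. Leaving out 1 library, chosen for the shares after seeing the data, moved the share difference of PKP2 over -0.010 to 0.16 and that of DSC3 over -0.14 to 0.0093 percentage points, the cause of which was not tested. With counts not divided by length no share changed direction, but the CLDN7 groups overlapped. Depth limits the 10 members not tested and TJP3, DSC3 and GRHL1, whose intervals are wide.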
